A study of Mus musculus with 6 samples.

Results

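Cyp7a1, Slc51a and Asic5 were 3 of the 332 genes in a table of mouse liver RNA-seq after a single oral dose of gigantol, and they stand for bile acid synthesis, bile acid export and bile acid sensing. They were picked by symbol from a table that its authors had already selected on the contrast of gigantol with vehicle, so every difference between those groups given here is a description of how the genes were chosen. The livers were those of 6 male Kunming mice, an outbred stock, 6 to 8 weeks old and 20 to 28 g. By random assignment 3 mice were given gigantol by mouth at 10 mg/kg and 3 the same volume of vehicle, and livers were collected 4 h later. Gigantol is a bibenzyl of Dendrobium orchids, and the series title calls it an agonist of PPARα and PPARγ, nuclear receptors that control lipid genes. Titles of the samples and headers of the CPM columns read PANC1-OE (gigantol) or PANC1-Vector (vehicle), and PANC1 is a cell line of human pancreatic cancer. However, the gene IDs of all 332 rows are mouse and the other labels describe mouse liver. The group of each sample therefore rests on its treatment label, while each CPM column was joined to its sample by the shared title.

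Bile acids are made from cholesterol in hepatocytes, secreted into bile, reclaimed in the ileum and returned to the liver. Cyp7a1 encodes cholesterol 7α-hydroxylase, which catalyses the rate-limiting step of the classic pathway, and its transcription is repressed when bile acids return, through the receptor FXR in liver and the ileal hormone FGF15. Slc51a encodes OSTα, the subunit that pairs with OSTβ (Slc51b) to carry bile acids out of cells across the basolateral membrane, a gene that FXR induces. Asic5 encodes a sodium channel of the acid-sensing and epithelial sodium channel family that bile acids activate, known in rodents from bile duct epithelium, brain and intestine.

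Promoter sequence is shown for Asic5, the gene of the 3 with the largest ratio between groups, and for Slc51a, the one with the fewest reads. RefSeq promoter windows (GRCm38.p6, C57BL/6J reference, not Kunming) matched 2 of the 3 genes, Slc51a on the minus strand at chr16:32487880-32488129 and Asic5 on the plus strand at chr3:81996672-81996921. The Slc51a window adjoins the first base of the GENCODE M21 gene on the same build. The Asic5 window ends just before the start of the protein-coding transcript Asic5-201, which lies 14632 bases inside the GENCODE M21 gene, whose first base belongs to a transcript not annotated as protein-coding, so the window is the promoter of the RefSeq start and not of the whole annotated gene. Each line is 250 bases ending at the base before the RefSeq start, with 3 searched motifs in capitals wherever they occur on either strand. The motifs were the E-box (CACGTG), the nuclear receptor hexamer (AGGTCA, which lies on the other strand in Slc51a) and the TATA box (TATAAA).
Slc51a: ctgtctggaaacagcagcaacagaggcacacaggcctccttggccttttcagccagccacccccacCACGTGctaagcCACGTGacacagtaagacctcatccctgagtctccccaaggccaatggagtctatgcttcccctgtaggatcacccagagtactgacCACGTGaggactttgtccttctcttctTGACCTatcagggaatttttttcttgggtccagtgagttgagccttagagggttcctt
Asic5: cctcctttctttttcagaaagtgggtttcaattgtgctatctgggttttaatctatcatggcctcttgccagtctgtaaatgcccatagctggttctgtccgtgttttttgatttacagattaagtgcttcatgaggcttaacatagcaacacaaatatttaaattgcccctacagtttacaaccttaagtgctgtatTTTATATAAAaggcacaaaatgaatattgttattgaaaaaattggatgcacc

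The Slc51a window held the E-box 3 times, beginning 184, 172 and 85 bases before the start, and the nuclear receptor hexamer once, 58 bases before it. Among 32544 distinct RefSeq windows of the same length, 6.03% held the E-box at least once and 0.0615% (20 windows) held it 3 or more times, while 4571 windows held the nuclear receptor hexamer on either strand. The E-box and the TATA box were added to the search after the sequences had been seen. The Asic5 window held neither the E-box nor the nuclear receptor hexamer. It held the TATA box on both strands, at 52 and 48 bases before the start and overlapping each other, as 12.3% of windows hold it at least once. A direct repeat of the nuclear receptor hexamer spaced by 1 base, the DR1 type of element that PPAR and RXR bind, and its inverted repeat, the IR1 type that FXR and RXR bind, were searched on both strands without mismatches. They were found in neither window, and in 11 and 2 of the 32544 windows. These matches describe the letters of the reference and nothing about binding in these livers. Asic5 was the richer in A and T, with 35.6% G and C against 53.2% for Slc51a and a median of 52.4% over all windows.

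Expression is given in CPM, reads scaled to a fixed library size of 1e+06 reads. Worked out from the smallest CPM steps, depth was 21200000 to 26700000 reads per library, and 3 reads, taken as the lowest level to be read, were worth 0.112 to 0.141 CPM. Intervals on single livers are exact 95% Poisson intervals on those reads and cover counting error only.

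Cyp7a1 (ENSMUSG00000028240, chromosome 4 from 6265612 to 6275633, minus strand, with coordinates as in the table, whose mouse build is not named) was lower in the livers of gigantol mice. The vehicle livers read 202, 183 and 159 CPM for replicates 1, 2 and 3. The gigantol livers read 39.9, 140 and 36.5 CPM. All 3 gigantol livers lay below all 3 vehicle livers, but the gigantol group was itself divided, with replicates 1 and 3 at 22.0% and 20.1% of the vehicle mean and replicate 2 at 77.2%. Counting error was small beside this, since replicate 2 had an interval of 135 to 145 CPM and vehicle replicate 3, the nearest vehicle liver, one of 154 to 164 CPM. Group means were 72.1 ± 58.8 CPM with gigantol and 181 ± 21.6 CPM with vehicle (SD, n = 3 each), a 2.51-fold lower mean, and the medians differed 4.59-fold. The gigantol mean rested on replicate 2. Without that liver it was 38.2 CPM and the vehicle mean was 4.75 times as high. Coefficients of variation were 81.5% among gigantol and 11.9% among vehicle livers.

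On the log2(CPM + 1) scale the Cyp7a1 difference was −1.60 ± 0.584 (SE, limma). In the authors' deposited table Cyp7a1 had a log2 fold change of −1.32, a p of 0.00500 and an FDR of 0.222, so it was not called at an FDR of 0.05, and its p ranked 161 of the 332. Cyp7a1 was among the abundant genes of the table, ranking 12 of 332 by vehicle mean and 22 by gigantol mean.

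Slc51a (ENSMUSG00000035699, chromosome 16 from 32293322 to 32306697, minus strand, same unnamed build) was a low-level transcript whose groups overlapped. The vehicle livers read 0.374, 1.56 and 2.34 CPM, which are 10, 40 and 54 reads. The gigantol livers read 0.188, 0.798 and 0.488 CPM, which are 4, 17 and 12 reads. Vehicle replicate 1 thus lay between the lowest and the middle gigantol liver, and its interval of 0.180 to 0.689 CPM overlapped those of all 3 gigantol livers. The other vehicle livers were above every gigantol liver, although the interval of vehicle replicate 2 (1.12 to 2.13 CPM) met that of gigantol replicate 2 (0.465 to 1.28 CPM).

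Mean Slc51a was 0.491 ± 0.305 CPM with gigantol and 1.43 ± 0.991 CPM with vehicle (SD, n = 3 each), a 2.90-fold lower mean. With 1 liver left out the ratio of vehicle to gigantol ran from 1.97 without vehicle replicate 3 to 4.22 without gigantol replicate 2. The log2(CPM + 1) difference was −0.63 ± 0.334 (SE, limma without a filter on low values, which Slc51a did not pass), and this scale understates the change of so low a gene. In the authors' deposited table its log2 fold change was −1.53, its p 0.0399 and its FDR 0.581, rank 307 of 332 by p, near the edge of a table whose largest p was 0.0499 and smallest absolute log2 fold change 1.00. In the GENCODE M21 annotation 567 bases of Slc51a exon overlap exons of Pcyt1a, a phosphatidylcholine synthesis gene on the opposite strand. The libraries were stranded, but no source used here says whether the counting used the strand, so Pcyt1a reads cannot be told apart from Slc51a reads in that stretch.

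Asic5 (ENSMUSG00000028008, chromosome 3 from 81889597 to 81928540, plus strand, same unnamed build) was higher in every gigantol liver. The vehicle livers read 8.69, 3.01 and 3.60 CPM. The gigantol livers read 18.7, 77.0 and 21.4 CPM. No gigantol liver overlapped a vehicle liver, and the nearest pair, gigantol replicate 1 (interval 16.9 to 20.6 CPM) and vehicle replicate 1 (7.61 to 9.88 CPM), did not overlap in counting error. Gigantol replicate 2 stood apart once more, at 1640 reads against 397 and 526 in the other gigantol livers.

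Mean Asic5 was 39.0 ± 32.9 CPM with gigantol and 5.10 ± 3.12 CPM with vehicle (SD, n = 3 each), a 7.65-fold higher mean, and the medians differed 5.94-fold. The ratio was 3.93 without gigantol replicate 2 and 11.8 without vehicle replicate 1. The log2(CPM + 1) difference was 2.53 ± 0.585 (SE, limma). In the authors' deposited table the log2 fold change was 2.94, the p 2.66e-07 and the FDR 0.000160, the 20th row of the table by p. Asic5 moved from rank 101 of 332 by vehicle mean to rank 33 by gigantol mean. No exon of Asic5 or Cyp7a1 overlaps another annotated gene in GENCODE M21.

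Of the 3 genes, 1 (Asic5) was called at an FDR of 0.05 by the authors' deposited table, as were 25.9% of its 332 rows, and the groups did not overlap for 2 (Cyp7a1 and Asic5), where 72.0% of rows did not. The rows and these genes were selected on the same contrast, so nothing is read from either count. The livers are whole tissue, so fewer cells of a type and less RNA per cell cannot be told apart.

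**Figure D1:**
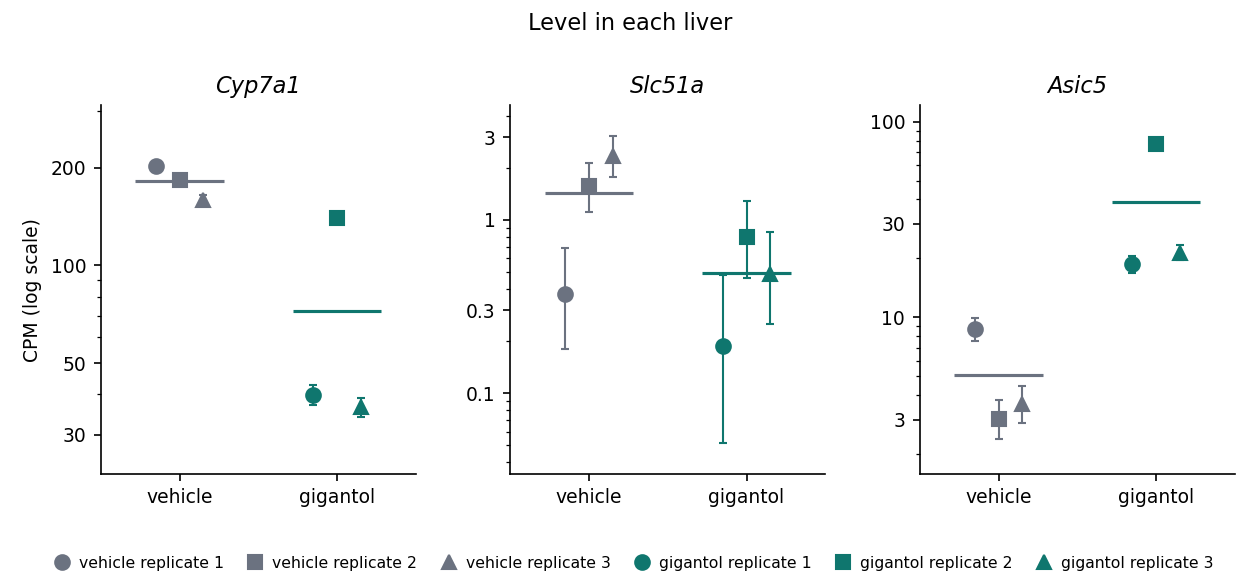
CPM of Cyp7a1, Slc51a and Asic5 in each liver (log axes that differ between panels), with vehicle in grey and gigantol in green, 1 symbol per replicate, exact 95% Poisson counting intervals as bars and group means as horizontal lines. Gigantol replicate 2 (140, 0.798 and 77.0 CPM) was the highest gigantol liver for each gene, and vehicle replicate 1 of Slc51a (0.374 CPM) lay among the gigantol livers.

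**Figure D2:**
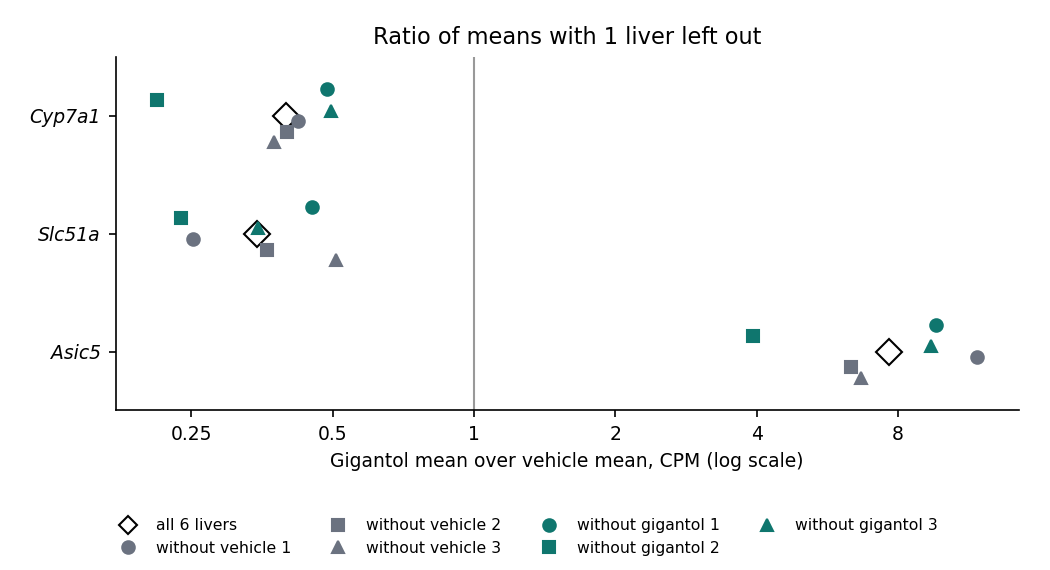
Gigantol mean over vehicle mean in CPM (log axis) for each gene, with all 6 livers (open diamonds) and with each liver left out in turn (grey for vehicle, green for gigantol). Since the groups of Cyp7a1 and Asic5 did not overlap, their ratios could not cross 1, and those of Slc51a ran from 0.237 to 0.507, while leaving out gigantol replicate 2 moved Asic5 from 7.65 to 3.93 and Cyp7a1 from 0.398 to 0.211.

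Levels were next compared between the genes within each liver, per kb of exon (union of GENCODE M21 exons: 4.17 kb for Cyp7a1, 3.20 kb for Slc51a and 2.31 kb for Asic5). This ratio does not depend on the scaling of a library. It was examined after the values had been seen. In vehicle livers Cyp7a1 was at 43.4 ± 5.17 CPM per kb, Asic5 at 2.21 ± 1.35 and Slc51a at 0.446 ± 0.310 (SD, n = 3), in that order in each liver. In gigantol livers Cyp7a1 and Asic5 stood level, at 17.3 ± 14.1 and 16.9 ± 14.3 CPM per kb, with Slc51a far below at 0.154 ± 0.0954. That match depends on the exon lengths used, since the gigantol means before division by length were 72.1 CPM for Cyp7a1 and 39.0 CPM for Asic5.

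Within each gigantol liver the level of Asic5 per kb was 0.848, 0.995 and 1.06 times that of Cyp7a1. Both genes varied by a similar factor across those livers (highest over lowest 3.84-fold for Cyp7a1 and 4.12-fold for Asic5). Most of that variation was replicate 2, at 3.67-fold (Cyp7a1) and 3.84-fold (Asic5) the mean of the other gigantol livers, which lay near each other. That both genes varied together thus rests largely on replicate 2. The spread of the ratio itself was set by replicates 1 and 3, with replicate 2 between them. Within the vehicle livers the ratio of Asic5 to Cyp7a1 was 0.0778, 0.0298 and 0.0410. The lowest gigantol ratio was 10.9 times the highest vehicle ratio, and the means of 0.968 ± 0.108 and 0.0495 ± 0.0251 (SD, n = 3 each) differed 19.5-fold. The fold was 19.3 without gigantol replicate 2 and 27.4 without vehicle replicate 1. It combines the higher Asic5 and the lower Cyp7a1 means of the contrast on which the rows were selected, so it supports neither. As background for the evenness, the ratio of a gene to Cyp7a1 varied 4.78-fold among the gigantol livers at the median of the 213 other table genes whose mean reached 1 CPM. It varied 1.25-fold for Asic5, and 3 of the 213 (Gm29966, Aox1 and Asic5 itself) were that even or more. The ratio was examined after these same values had been seen, so nothing is read from that count.

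The ratio of Cyp7a1 to Slc51a per kb showed no such order. It was 163, 134 and 57.3 in the gigantol livers and 414, 89.6 and 52.0 in the vehicle livers, and the groups overlapped.

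**Figure D3:**
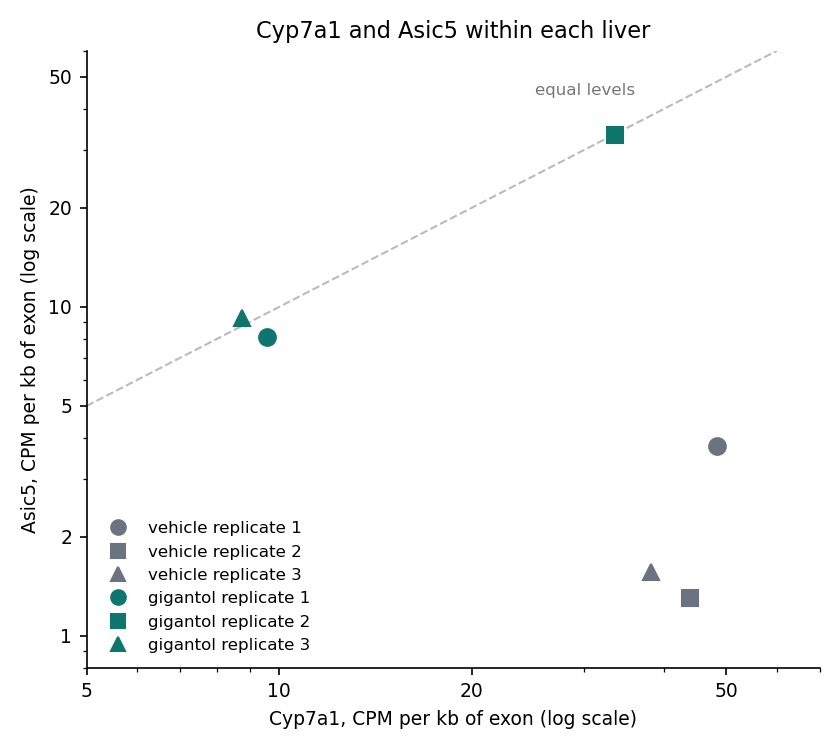
Asic5 against Cyp7a1 in CPM per kb of exon, both on log axes, 1 point per liver (grey vehicle, green gigantol), with a dashed line where the levels are equal. The gigantol livers lie along the line at ratios of 0.848 to 1.06, and the vehicle livers lie well below it at 0.0298 to 0.0778.

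The rest of the bile acid pathway was followed through lists of 91 distinct genes of synthesis, uptake, export, sensing, transcriptional control of Cyp7a1, the sodium channel family and cholesterol supply, of which 5 were in the table and the others were not analysed here. Of 22 synthesis enzymes 2 were present (Cyp7a1 and Cyp7b1), of 6 uptake genes 1 (Slco1a1), of 4 sinusoidal export genes 1 (Slc51a, without its partner Slc51b), and of 13 sensing and feedback genes 1 (Asic5). None of 8 canalicular exporters, 18 regulators of Cyp7a1 or 14 sterol genes was in the table. By the FDR that the authors' deposited table lists, 2 of the 5 rose (Asic5 and Slco1a1) and 0 fell, while 10.2% of the 332 rows rose and 15.7% fell. The annotation deposited with the table placed 5 genes in the bile secretion pathway, 2 with higher and 3 with lower means (Cyp7a1, Slc51a, Slco1a1, Sult2a7 and Ugt2b38), and listed Cyp7a1 as 1 of 6 genes of PPAR signalling. It gave Cyp7a1 and Slc51a a shared term for bile acid and bile salt transport, while Asic5 shared only membrane terms with either.

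Cyp7b1, the oxysterol 7α-hydroxylase of the alternative synthesis pathway, read 13.3, 19.4 and 18.9 CPM in vehicle and 16.0, 85.8 and 18.0 CPM in gigantol livers. Gigantol replicate 2 alone lay above the vehicle range and the other gigantol livers lay within it, and Cyp7b1 was not called in the authors' deposited table (FDR 0.545). Slco1a1, an organic anion transporter that takes up bile acids, read 85.7, 141 and 125 CPM in vehicle and 256, 455 and 252 CPM in gigantol livers, with no overlap, and the authors' deposited table lists an FDR of 0.000708. Sult2a7, a sulfotransferase of a multigene family whose members sulfate steroids and bile acids, fell from 1.80, 2.31 and 2.08 CPM to 0.0940, 0.516 and 0.407 CPM (the FDR listed in the authors' deposited table was 0.000294), the lowest value being under 3 reads. Ugt2b38, a glucuronosyltransferase of another multigene family, read 38.9, 14.4 and 14.0 CPM in vehicle and 52.5, 54.2 and 42.6 CPM in gigantol livers, and the authors' deposited table did not call it (FDR 0.186). Authors' counting could have split reads between close relatives in both families.

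Across these 7 genes gigantol replicate 2 was the highest gigantol liver in 7 of 7, for genes with lower and with higher gigantol means alike. Being highest in that liver was not particular to bile acid genes, since replicate 2 was the highest gigantol liver in 131 of all 332 rows (39.5%). It was the lowest, ties included, in 138. Its excess over the mean of the other gigantol livers was 3.67-fold for Cyp7a1, 2.36-fold for Slc51a, 3.84-fold for Asic5 and 5.06-fold for Cyp7b1, against 1.14-fold for Ugt2b38. Its lead over the next gigantol liver was small for Sult2a7 (0.516 against 0.407 CPM) and Ugt2b38 (54.2 against 52.5 CPM). For Slc51a it was 17 against 12 reads, with overlapping counting intervals, so the count of 7 rests partly on leads this small.

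**Figure D4:**
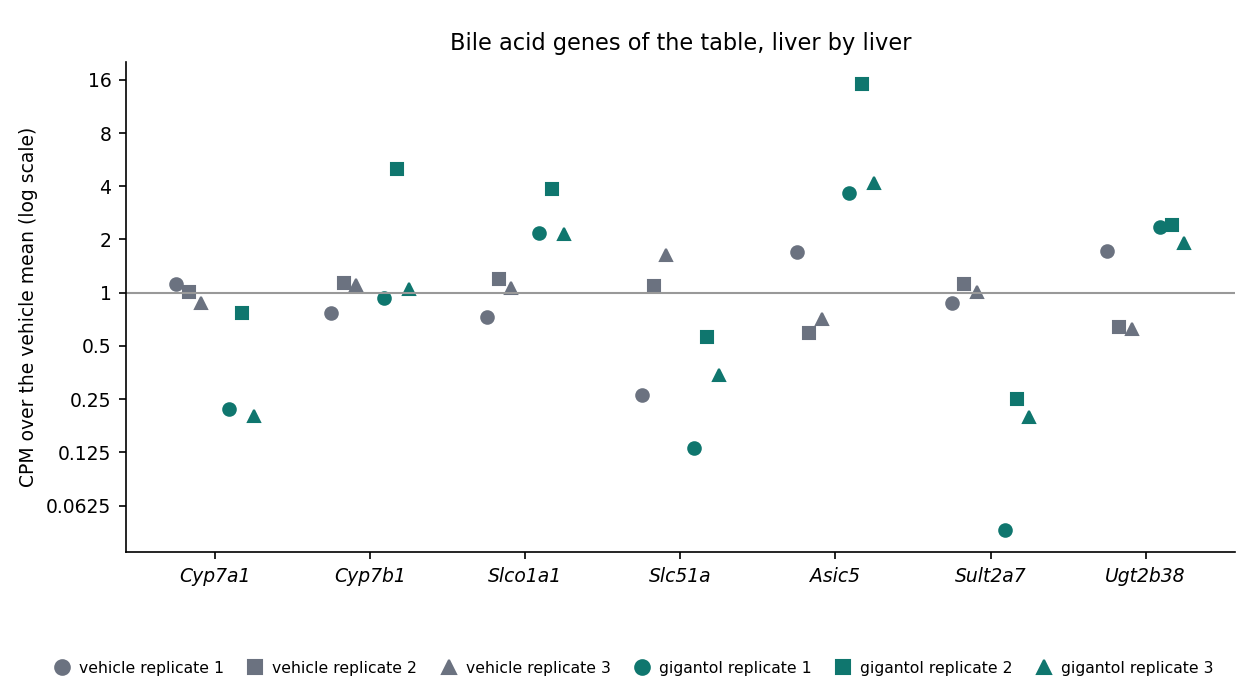
CPM of the 7 bile acid genes in each liver divided by the vehicle mean of the gene (log axis, line at 1), vehicle in grey and gigantol in green, 1 symbol per replicate. The square of gigantol replicate 2 is the highest green symbol for every gene, though by little for Slc51a in reads and for Sult2a7 and Ugt2b38. For Cyp7b1 the other gigantol livers sit within the vehicle range.

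For each gene the table rows with the most similar profile over the 6 livers were found as the smallest root mean square difference of log2(CPM + 1), each profile centred on its own mean, among rows whose mean reached 1 CPM. These profiles include the contrast on which the rows were selected, and the medians below mix rows of both directions. Nearness thus partly reflects the sign and size of that contrast, and nothing about shared control is read from it. The scale also flattens the profile of a gene as low as Slc51a. Nearest to Cyp7a1 was G6pc, which encodes the glucose-6-phosphatase of gluconeogenesis (0.30, against a median of 0.97 over 213 rows), followed by Cish, a feedback inhibitor of cytokine receptor signalling (0.39), and Cd300c2, a myeloid receptor (0.39). G6pc read 632, 443 and 425 CPM in vehicle and 74.6, 294 and 123 CPM in gigantol livers, so it too was highest among gigantol livers in replicate 2. Nearest to Slc51a was Odf3b (0.08, median 0.82 over 214 rows), then A630031M04Rik (0.18) and Gm47015 (0.19). Odf3b read 2.02, 4.81 and 5.99 CPM in vehicle and 1.51, 3.00 and 1.87 CPM in gigantol livers, sharing the low vehicle replicate 1. Nearest to Asic5 was the predicted gene Gm45470 (0.50, median 1.82 over 213 rows), then Hamp, the iron hormone hepcidin (0.62), and Adrb3, the beta 3 adrenergic receptor (0.71). Hamp read 122, 88.7 and 96.4 CPM in vehicle and 183, 514 and 296 CPM in gigantol livers.

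Markers of cell types other than hepatocytes were set beside these values, because Asic5 and Slc51a are also known from bile duct epithelium. None of 12 cholangiocyte, 7 ileal, 6 endothelial or 8 hepatocyte markers was in the table, so neither bile duct content nor the hepatocyte label could be read from them here. Of all 52 markers 7 were in the table, all with lower gigantol means. By the authors' log2 fold change 213 of the 332 rows were lower, and 4 of the 7 markers were globins, so nothing is read from that count. The sum of these 4 of 5 red blood cell markers was 552, 1909 and 1108 CPM in vehicle and 347, 632 and 571 CPM in gigantol livers, and the groups overlapped. The sum of Lrat and Des (2 of 7 stellate cell and fibroblast markers) was 13.1, 24.5 and 21.8 CPM in vehicle and 9.65, 6.81 and 11.9 CPM in gigantol livers. The groups did not overlap for that sum. Both sums were thus low in vehicle replicate 1 among the vehicle livers, as Slc51a was, and Asic5 was high there. Marco, 1 of 7 Kupffer cell and macrophage markers, read 8.76, 8.21 and 8.89 CPM in vehicle and 2.54, 3.71 and 1.54 CPM in gigantol livers. The groups did not overlap for Marco, as they did not for 72.0% of all rows. No marker present was at 0 in any liver. The part of these cells in the values of Cyp7a1, Slc51a and Asic5 was not tested.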

How the data were processed

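Stranded libraries were made from rRNA-depleted total RNA of 6 livers, per the labels' protocols. The submitters' processing notes list the tools fastp, HISAT2 and DESeq2 1.16.1 and no role for any, and the build GRCh38 although every gene ID is mouse. Not given in the sources used here are the counter, annotation and filters. The deposited table holds CPM per library, a unit read from its values: low values up to 200 reads were whole multiples of a step per library, within 0.1 reads, in all 6 libraries. A second search for such steps, with another method, did not find them in the 3 vehicle libraries. The reads therefore serve only to describe depth, single livers and their counting intervals, and no count test was run. The deposited table also holds the authors' log2 fold change, p-value and FDR, per the file headers. The FDR of the first row divided by its p implies an adjustment over 13192 genes, a number that the sources used here do not state. Of those, 332 rows were analysed here.

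Samples, all of 1 batch label, were grouped by treatment label. limma 3.58.1 (R 4.3.3) was fitted to log2(CPM + 1) of the 201 rows that reached 1 CPM in 3 or more libraries, using trended, robust moderation, two-sided, Benjamini-Hochberg adjusted. It called 111 rows (55.2%), a circular count in a selected table. Of Cyp7a1, Slc51a and Asic5, 2 passed the filter, and limma SEs alone are used for them. Named genes were the 3 chosen genes, list members or rows annotated to bile acids in the table, and the 3 most similar rows for each chosen gene. Genes and lists were chosen with earlier results of these data known.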

Additional observations from a re-analysis of the deposited data

How the results depend on the processing

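The differences of Cyp7a1, Slc51a and Asic5 were recomputed under pseudocounts, a replicate block, each liver left out, and medians, the last chosen after seeing the data. Their signs say nothing about stability for Cyp7a1 and Asic5, whose groups did not overlap. The difference that moved by more than 1 SD between replicates was that of Slc51a, at −1.22 with a pseudocount of 0.1 CPM against −0.63 with 1 CPM, a scale that compresses low values less. With 1 liver left out the log2(CPM + 1) difference ran from −2.21 to −1.26 for Cyp7a1, from −0.99 to −0.35 for Slc51a and from 1.90 to 2.92 for Asic5. limma's 111 called rows became 169 with no filter on low values, 24 among rows with a mean of at least 5 CPM, 9 adjusted over the 13192 genes that the authors' FDR implies, and 32 to 136 with 1 liver left out (57 and 60 without gigantol replicates 1 and 3, 32 and 35 without vehicle replicates 2 and 3). The labels give both groups the numbers 1 to 3 and nothing else that pairs mice. Deviations of same-numbered livers correlated at 0.09, 0.11 and −0.09 across 214 rows, and those of differently numbered livers at −0.13 to 0.12. With so few livers and rows selected on the contrast, these values cannot decide whether same-numbered mice shared anything else. With the replicate block limma called 128 rows, and the differences of the 3 genes (−1.60, −0.63 and 2.53) cannot change with it in a balanced design. The planned count test on reads worked out from the CPM steps was not run, because a second search with another method did not find the steps in the 3 vehicle libraries. Depth limits Slc51a most, at 4 to 54 reads per liver.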
